A study of Rattus norvegicus with 49 samples.

Results

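The genes described here make fatty acids from sugar in the liver, take fatty acids up and carry them inside the cell. They are Mlxipl, Srebf1, Pklr, Acly, Acaca, Fasn, Elovl6, Cd36, Fabp1 and Fabp7, and every transcript probe whose RefSeq accession mapped to one of these 10 symbols was taken, whatever its values. In all, 11 of the 30367 probes on the array were members, for 9 of the 10 genes. Elovl6 and Cd36 had 2 probes each, and Srebf1 had no matching probe and was not analysed here. All 11 probes passed the filter on dim signals, which 17661 probes passed.

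The RNA came from frozen livers of male and female F344 rats, 7 to 8 weeks old at the start, which received furan by gavage at 2, 0.5, 0.12 or 0.03 mg/kg, or none of it (0 mg/kg), on 5 days a week for 90 days. All animals, controls included, were given the corn oil vehicle, and livers were taken 24 h after the last dose. Each array carried the liver RNA of 1 rat against a universal rat reference RNA, with 5 rats in every group except males at 0.03 mg/kg, in which 4 arrays were deposited and 3 were used. Values are log2 ratios of liver over reference signal, so they are compared between animals for 1 probe and not between probes.

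Hepatocytes turn surplus sugar into fat. Pyruvate kinase ends glycolysis, citrate carries the carbon out of the mitochondrion, ATP citrate lyase and acetyl-CoA carboxylase prepare it, fatty acid synthase builds palmitate, and Elovl6 lengthens it to stearate. The transcription factors ChREBP, encoded by Mlxipl, and SREBP-1, encoded by Srebf1, switch this pathway on after feeding in response to sugar and insulin. Cd36 brings fatty acids in from the blood, and the small cytosolic Fabp proteins hold them in solution.

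RefSeq promoter windows (build GRCr8) were given for 7 of the 10 genes, and none was at hand for Fasn, Acaca or Elovl6. The 250 bases upstream of the start are printed for the 3 genes with a window that fell at 2 mg/kg in males, to show what lies upstream of them, with every match to a searched motif in capitals. Acly (chr10:85963632-85963881, minus strand), Pklr (chr2:176841014-176841263, plus strand) and Fabp7 (chr20:37669356-37669605, plus strand) read, 5′ to 3′:
Acly: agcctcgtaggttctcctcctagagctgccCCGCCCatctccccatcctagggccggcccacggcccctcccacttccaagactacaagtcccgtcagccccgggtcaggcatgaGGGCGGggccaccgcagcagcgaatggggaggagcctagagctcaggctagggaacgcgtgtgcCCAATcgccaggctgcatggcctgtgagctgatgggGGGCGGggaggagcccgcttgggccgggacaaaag
Pklr: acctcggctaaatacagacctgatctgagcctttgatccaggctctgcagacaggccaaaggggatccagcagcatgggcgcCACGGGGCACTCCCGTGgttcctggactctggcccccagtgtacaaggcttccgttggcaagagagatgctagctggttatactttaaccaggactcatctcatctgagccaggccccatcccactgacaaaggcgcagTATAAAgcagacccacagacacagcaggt
Fabp7: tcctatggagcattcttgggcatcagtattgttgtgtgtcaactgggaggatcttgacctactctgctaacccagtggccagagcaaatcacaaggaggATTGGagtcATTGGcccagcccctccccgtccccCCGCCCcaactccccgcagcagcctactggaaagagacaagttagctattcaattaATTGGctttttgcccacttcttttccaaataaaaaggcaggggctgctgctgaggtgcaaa
In Pklr, the capitals at -168 are a carbohydrate response element, the kind of paired E box that ChREBP binds, spelled CACGNG and CNCGTG with 5 bases between them, and those at -29 are a TATA box (TATAAA). In Acly they are 3 GC boxes (GGGCGG) and 1 CCAAT box. In Fabp7 they are 3 CCAAT boxes and 1 GC box. On either strand, the response element was found in 0.0209% of 33469 rat promoter windows of this length, TATAAA in 12.9%, CCAAT in 34.0% and GGGCGG in 30.5%, and no member held the plain E box CACGTG, found in 5.59%. The spelling of the response element was chosen with the Pklr sequence known, so its share describes that spelling only.

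Depth and array quality bore on these values as follows. On the 48 arrays used, 37.9% to 71.1% of liver spots were well above background. A male at 0.03 mg/kg, with 5.06%, was left out. The share followed the slide, with 8 slides in all. Slides 5 and 6 held 10 arrays and no control and had the lowest medians, at 43.2% and 45.0%, so slide was kept as a term in the fit. Values called slide-adjusted have the slide's own shift removed, as the fit estimated it from these same values. Their SDs can therefore understate the spread between rats. How many of all probes separate between groups, as measured or after this adjustment, was not counted. No member probe was saturated. Acaca was above background in liver on 32 of the 48 arrays and the Elovl6 probes on 44 and 29, and the other probes on all 48. For Fabp7 the reference RNA, not the liver, was dim: it was above background on 26 arrays. Of the tissue's defining genes, all 6 hepatocyte markers were above background on 47 or 48 arrays, the adipocyte markers Adipoq and Lep on 2 and 1 but Cfd and Retn on all 48, and the pancreas markers Pnlip and Prss1 on 0 but Ctrb1, Cpa1, Cela1 and Cpb1 on 42, 29, 24 and 19.

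In males, 4 of the 11 probes (36.4%) were lower at 2 mg/kg than in controls past both thresholds, an adjusted p of at most 0.05 and a change of at least 1.5-fold: Fasn, Fabp7, Acly and Pklr. None rose. Among all probes 5.07% were called in this comparison and 2.4% were called lower. The median over the 11 probes was a log2 change of -0.39, and 9 lay below zero, against a median of -0.02 for all probes tested. In females at 2 mg/kg, Fabp7 was called lower and nothing else was, where 1.4% of all probes were called and 0.821% were called lower. The female median was -0.44, with 10 of 11 probes below zero, against a median of 0.005 for all probes tested. Elovl6 and Cd36 enter these counts with 2 probes each. The share of all probes below zero was not counted in either sex. Tests were limma fits over all probes with Benjamini-Hochberg adjustment. The p-values measure the spread between these animals, and a bulk liver sample cannot tell fewer cells of a type from less RNA per cell.

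**Figure D1:**
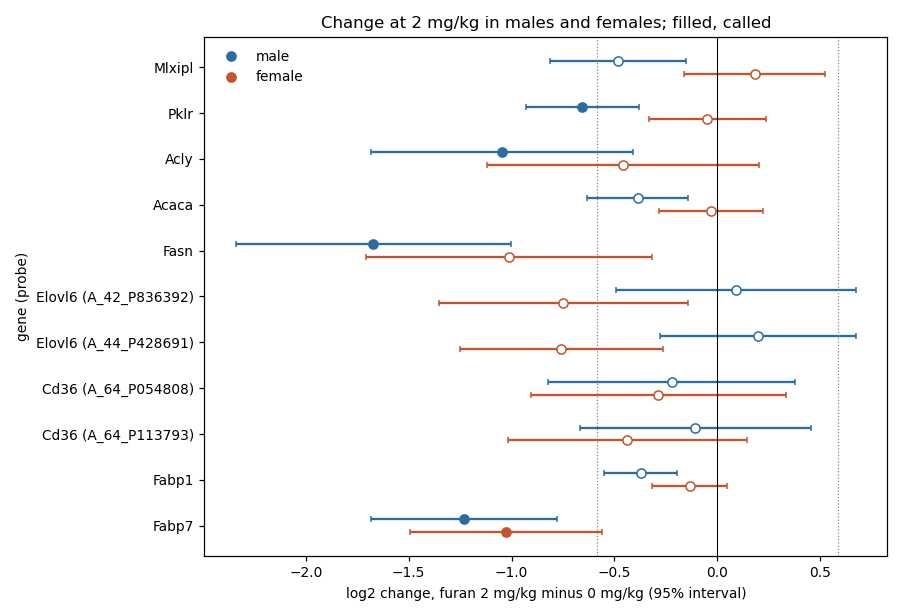
Log2 change from 0 to 2 mg/kg furan for each member probe (rows) in males and females, with 95% intervals from the fit. Filled points passed both thresholds and dotted lines mark 1.5-fold; the male points of Fasn, Fabp7, Acly and Pklr and the female point of Fabp7 are filled, and all 5 lie left of zero.

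Mlxipl, the regulator, was not called in either sex. In male controls its log2 ratio was 2.73, 2.91, 2.94, 2.84 and 1.93, and at 2 mg/kg it was 0.85, 1.94, 2.73, 2.22 and 1.35. The treated range reached into that of the controls as measured and lay below it once adjusted for slide. The change was -0.48 (SE 0.16, adjusted p = 0.0282 by limma), under the 1.5-fold line, so it was not called. With the scanner software's ratio it was called, at -0.61 (adjusted p = 0.0202 by limma). In females the log2 change at 2 mg/kg was 0.18 (95% interval -0.16 to 0.52, adjusted p = 0.544 by limma), and it was -0.52 without the slide term. The difference between the sexes in this change was -0.66 (95% interval -1.12 to -0.20) with an adjusted p of 0.102 by limma.

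Pklr, liver pyruvate kinase, was called lower in males and not in females. The male controls read 4.85, 4.76, 4.27, 5.18 and 3.93 and the males at 2 mg/kg 3.40, 3.52, 4.39, 4.68 and 2.56. Ranges overlapped as measured, with 3 of 5 treated males below the lowest control, and after slide adjustment the groups separated, at 4.38 ± 0.16 and 3.73 ± 0.36 (SD, n = 5 each). The log2 change was -0.66 (SE 0.14, adjusted p = 0.000492 by limma), a fall of 1.58-fold. This is near the 1.5-fold line: the change was -0.58 without control male 5 and -0.47 without treated male 87, no longer called in either case. The call was also lost without the slide term (-0.89, adjusted p = 0.0587 by limma), with the dim array kept (-0.67, adjusted p = 0.135 by limma), with the scanner software's ratio (-0.47), with median centring (-0.39) and in the authors' values (-0.62, adjusted p = 0.279 by limma). On the 3 slides that held both male groups it ran from -1.37 to -0.18. In females it was -0.05 (95% interval -0.33 to 0.23, adjusted p = 0.863 by limma). The test of male against female change gave -0.61 (95% interval -0.99 to -0.23, adjusted p = 0.0744 by limma), the lowest adjusted p of any member in that test but past the threshold, and without treated male 86 it was -0.72 with an adjusted p of 0.0207 by limma.

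Acly, which splits citrate into acetyl-CoA in the cytosol, read 0.85, 1.13, 1.46, 2.16 and 1.37 in male controls. At 2 mg/kg the males read 0.17, 0.36, 1.26, -0.23 and -0.03. As measured 4 of 5 treated males lay below every control and the male at 1.26 lay among them, and adjusted for slide 2 of 5 were below, at 0.27 ± 0.54 against 1.31 ± 0.53 (SD, n = 5 each). The log2 change was -1.04 (SE 0.31, adjusted p = 0.0131 by limma), a fall of 2.06-fold, and ran from -1.40 to -0.90 within the 3 slides. Acly was not called without treated male 86 (-0.76, adjusted p = 0.072 by limma) or without control male 5 (-0.92, adjusted p = 0.0525 by limma). The same held without the slide term (-1.09, adjusted p = 0.0543 by limma) and with median centring (-0.89, adjusted p = 0.0615 by limma). Females changed by -0.46 (95% interval -1.12 to 0.20, adjusted p = 0.40 by limma).

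Acaca, the acetyl-CoA carboxylase that commits carbon to fat, was the member whose treated males all lay below the controls as measured. Male controls read -0.03, 0.02, 0.12, 0.26 and 0.13, and males at 2 mg/kg -0.24, -0.39, -0.25, -0.43 and -0.31. The step was small, at -0.39 on the log2 scale (SE 0.12, adjusted p = 0.0173 by limma), under 1.5-fold and so not called. It depended on the processing. With the scanner software's ratio the male change was -1.35 (adjusted p = 0.000424 by limma) and the male minus female difference -1.41 (adjusted p = 0.0485 by limma), both called. Which part of the processing mattered was not tested. Of the 5 treated males, 2 had a liver signal above background for this probe, against 5 of 5 controls. In females Acaca changed by -0.03 (95% interval -0.28 to 0.22, adjusted p = 0.906 by limma).

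Fasn, fatty acid synthase, had the largest fall of the 11 probes in males. Male controls read 0.20, 0.84, 1.15, 2.28 and 1.69, and males at 2 mg/kg -0.75, 0.40, 0.18, -1.32 and -0.29. As measured, 4 of 5 treated males lay below the lowest control, and adjusted for slide all 5 did, at -0.36 ± 0.40 against 1.31 ± 0.62 (SD, n = 5 each). The log2 change was -1.67 (SE 0.33, adjusted p = 0.000311 by limma), a fall of 3.19-fold, with -2.11 to -1.53 within the 3 slides that held both groups. Leaving out single rats gave -1.94 to -1.41, called each time, and it was called in every other alternative fit too.

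In females Fasn was not called. Controls read 3.02, 3.44, 2.05, 2.00 and 1.86 and females at 2 mg/kg 1.57, 2.12, 1.29, 1.22 and 1.01, so 4 of 5 treated females were under every control. The log2 change was -1.01 (SE 0.34, adjusted p = 0.0673 by limma), 2.02-fold, and -1.31 to -0.64 on the 2 slides that held both groups. It was called without control female 7 (-1.22, adjusted p = 0.0447 by limma) and with slide as a random term (adjusted p = 0.0457 by limma). The male and female changes differed by -0.66 (95% interval -1.59 to 0.27, adjusted p = 0.447 by limma), an interval that includes no difference.

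Elovl6, the elongase that acts on palmitate, was not called at 2 mg/kg in either sex. In males the 2 probes changed by 0.09 and 0.20 at 2 mg/kg (adjusted p = 0.85 and 0.587 by limma), with 95% intervals of -0.49 to 0.67 and -0.28 to 0.67. The second probe, A_44_P428691, was above background in 1 of 5 male controls and 1 of 5 treated males, so a male fall could hardly show by it. In females they changed by -0.75 and -0.76 (adjusted p = 0.118 and 0.054 by limma), with intervals of -1.35 to -0.14 and -1.25 to -0.27, and by -1.61 to 0.12 and -1.23 to -0.12 within the 2 slides that held both groups. By A_44_P428691 female controls read 1.34, 1.98, 0.98, 1.65 and 1.44 and females at 2 mg/kg 0.36, 0.75, 0.67, 1.32 and 0.31, with 4 of 5 below every control. This probe was called in females without control female 7 (-0.94, adjusted p = 0.0259 by limma), without treated female 90 (-0.93, adjusted p = 0.0335 by limma) and, with the slide term left out, at -0.79 (adjusted p = 0.0447 by limma). It was also called with slide as a random term (adjusted p = 0.0301 by limma) and in the authors' values (-0.86, adjusted p = 0.04 by limma). The male minus female difference was 0.84 for A_42_P836392 (adjusted p = 0.242 by limma) and 0.96 for A_44_P428691 (adjusted p = 0.102 by limma), neither past the threshold, the second against dim male signals and past it without treated male 86 (1.07, adjusted p = 0.0483 by limma). The 2 probes followed each other across the 48 arrays (r = 0.934, a description over arrays that share groups and slides).

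Cd36, the fatty acid translocase, showed no called change with furan. Its 2 probes moved by -0.22 and -0.11 in males (adjusted p = 0.63 and 0.818 by limma) and by -0.29 and -0.44 in females (adjusted p = 0.604 and 0.358 by limma). The male intervals ran from -0.82 to 0.38 and from -0.67 to 0.45, so a fall of the size seen for Fabp7 in males lay outside both. The probes followed each other with r = 0.977 over 48 arrays.

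Fabp7, the brain-type fatty acid binding protein known best from glia, was the member called in both sexes at 2 mg/kg. Male controls read 8.06, 7.08, 7.24, 7.49 and 6.67 and treated males 6.14, 5.59, 5.64, 7.45 and 4.46. Treated male 86, at 7.45, sat among the controls as measured and the other 4 lay below them, and adjusted for slide all 5 were below, at 5.87 ± 0.66 against 7.10 ± 0.14 (SD, n = 5 each). The male log2 change was -1.23 (SE 0.22, adjusted p = 0.000112 by limma), a fall of 2.35-fold, and ran from -2.21 to -0.61 within slides. Female controls read 6.58, 6.03, 6.70, 6.32 and 7.42 and treated females 5.00, 4.98, 4.85, 6.04 and 5.30. Here too 4 of 5 treated animals were below every control as measured, and all 5 once adjusted for slide. The female change was -1.03 (SE 0.23, adjusted p = 0.0084 by limma), 2.04-fold, with -1.38 to -1.06 within the 2 slides. The male and female changes differed by -0.20 (95% interval -0.83 to 0.42, adjusted p = 0.754 by limma).

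For Fabp7, with its dim reference channel, the changes and calls depended on the alternative fit. Whether the dim channel or the handling of background was the reason was not tested. With the liver channel alone the changes were -1.21 in males (adjusted p = 0.000225 by limma) and -0.90 in females (adjusted p = 0.0246 by limma), both still called. With the scanner software's own log ratio they were -0.68 (adjusted p = 0.115 by limma) and -0.21 (adjusted p = 0.743 by limma), and with the dim array at 0.03 mg/kg kept in the fit they were -1.25 (adjusted p = 0.155 by limma) and -0.70 (adjusted p = 0.59 by limma), none called. In the authors' values, fitted on all 49 columns without the slide term, the male call was lost too, at -1.46 (adjusted p = 0.0771 by limma). The values used here also lost the male call without the slide term when the dim array was kept, at -1.45 (adjusted p = 0.212 by limma). With the dim array left out, dropping the slide term did not lose the male call. No column of the authors' values was close to the dim array, so these fits may not rest on the same arrays.

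Fabp1, the liver-type fatty acid binding protein and an abundant hepatocyte protein, passed the p threshold in males but not the 1.5-fold line, and passed neither in females. Male controls read 10.17, 10.01, 9.21, 10.08 and 8.01 and treated males 8.29, 8.18, 9.59, 9.43 and 7.67, with broad overlap as measured. Adjusted for slide the spread within groups shrank from 0.91 and 0.84 to 0.13 and 0.12 (SD, n = 5 each) and the groups separated, at 9.07 and 8.69. The log2 change was -0.37 (SE 0.09, adjusted p = 0.00181 by limma), short of 1.5-fold. With the scanner software's ratio it was -0.62 (adjusted p = 7.86e-05 by limma) and was called. Females changed by -0.13 (95% interval -0.32 to 0.05, adjusted p = 0.371 by limma).

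Below 2 mg/kg no member probe was called in either sex. The share of all probes called was 0% at 0.03 mg/kg, 0.306% at 0.12 mg/kg and 0.362% at 0.5 mg/kg in males, and 0.017%, 0.0113% and 0.0283% in females. Without adjustment, limma gave a p under 0.05 to 2, 0 and 3 of the 11 member probes in males and 1, 3 and 4 in females, beside 4.12%, 6.53% and 11.2% of all probes in males and 6.47%, 8.45% and 15.2% in females. In females the lowest adjusted p at 0.5 mg/kg was 0.0715 by limma, for Elovl6 probe A_44_P428691, at -0.91 on the log2 scale. In males Acly and Fasn stood at -0.92 and -0.88 at 0.03 mg/kg, from 3 animals, with 95% intervals of -1.69 to -0.16 and -1.68 to -0.08 and an adjusted p of 0.9997 for both by limma.

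The trend over the 5 doses, fitted as a change per dose step with equal steps, called Fasn and Fabp7 in both sexes and Elovl6 in females. In males 2 of 11 probes were called, where 3.76% of all probes were called and 1.76% were called lower. In females 4 of 11 were called, where 3.09% were called and 2.6% were called lower. Slide-adjusted Fasn means in males were 1.31, 0.43, 0.74, 0.64 and -0.36 from 0 to 2 mg/kg, so the fall was not even over the doses, and its slope was -0.31 per step (SE 0.08, adjusted p = 0.00228 by limma). Female Fasn means were 2.47, 2.31, 2.20, 1.83 and 1.46, lower at each dose, with a slope of -0.25 (SE 0.08, adjusted p = 0.0272 by limma). The female Fasn call was lost without the slide term (adjusted p = 0.0557 by limma), with the liver channel alone (adjusted p = 0.0608 by limma), without slides 5 and 6 (adjusted p = 0.0606 by limma) and in the authors' values (adjusted p = 0.10 by limma). It was also lost without control female 2 or 4, female 70 at 0.5 mg/kg or female 92 at 2 mg/kg (adjusted p from 0.0544 to 0.0709 by limma).

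For Fabp7 the male means were 7.10, 7.27, 7.20, 6.98 and 5.87, a drop that came at the top dose, and the slope was -0.28 (SE 0.05, adjusted p = 0.000146 by limma). The female means were 6.40, 6.20, 6.25, 5.91 and 5.38, with a slope of -0.23 (SE 0.05, adjusted p = 0.00451 by limma). Both trend calls of Fabp7 were lost with the dim array kept (adjusted p = 0.552 in males and 0.502 in females by limma) and with the scanner software's ratio (adjusted p = 0.0514 and 0.773 by limma), and the male one in the authors' values (adjusted p = 0.0618 by limma). The 2 Elovl6 probes sloped by -0.19 each in females (adjusted p = 0.0496 and 0.0187 by limma), and by 0.01 and 0.04 in males (adjusted p = 0.919 and 0.669 by limma). Their female means were lowest at 0.5 mg/kg, at 0.17 and 0.55, and not at the top dose, at 0.44 and 0.71. Probe A_42_P836392 lost its call in 18 of the 25 fits without 1 female, with adjusted p from 0.0503 to 0.187 by limma. It also lost it in 9 other alternative fits, with adjusted p from 0.0594 to 0.371 by limma. A_44_P428691 lost it with the scanner software's ratio (adjusted p = 0.246 by limma), without slides 5 and 6 (adjusted p = 0.0613 by limma) and without control female 4 (adjusted p = 0.0652 by limma).

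**Figure D2:**
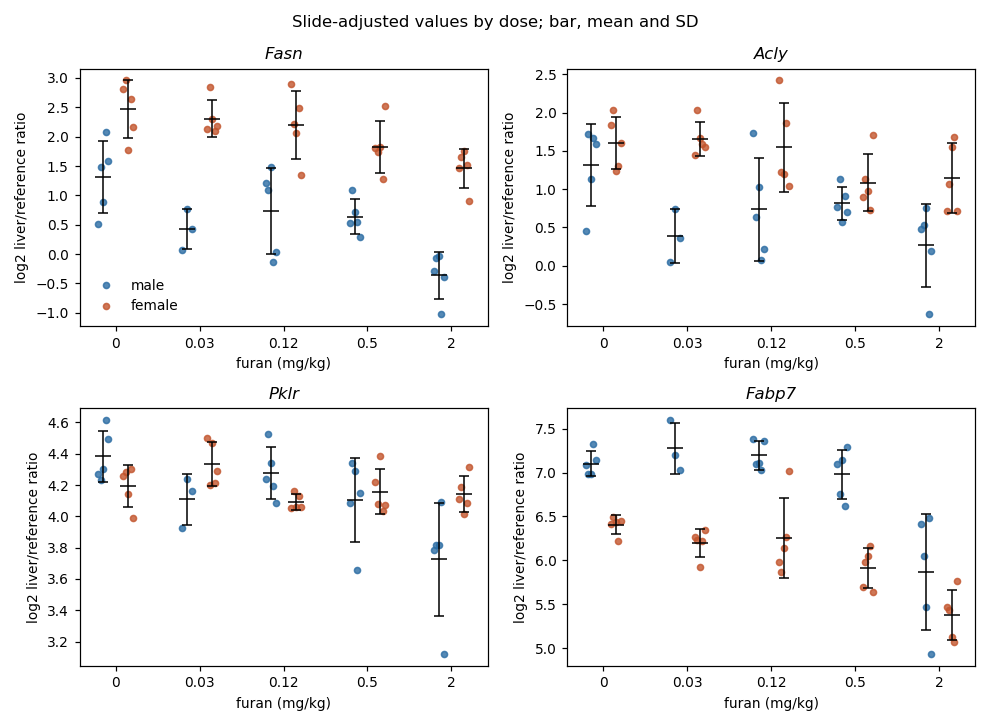
Slide-adjusted log2 liver/reference ratios of Fasn, Acly, Pklr and Fabp7 (vertical axes) at each furan dose in mg/kg (equally spaced), 1 point per rat, with bars for the mean and SD. In Fasn and Fabp7 every rat at 2 mg/kg lies below every control of its sex, and in Pklr this holds for males. As measured, each of these groups overlapped its controls. For Fasn in females the adjusted gap is narrow, from 1.75 in the highest treated rat to 1.78 in the lowest control. How many of all probes separate in this way was not counted.

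Before any furan, males and females differed in 6 of the 11 probes, 5 lower and 1 higher in males, where 6.42% of all probes were called and 3.56% were called lower. Elovl6 differed most by 1 of its probes, and by the other less than Cd36. By probe A_42_P836392 male controls read -2.62, -2.89, -2.37, -1.76 and -1.58 and female controls 0.94, 2.37, 0.45, 0.88 and 0.35, with no overlap. The male value was 9.28-fold lower, at -3.21 on the log2 scale (SE 0.28, adjusted p = 2.99e-11 by limma). The other probe gave -2.14 (SE 0.23, adjusted p = 4.12e-09 by limma), with 1 of 5 male controls above background.

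Cd36 was almost as far apart. Male controls read 0.77, 0.07, 0.44, 0.69 and -0.72 by probe A_64_P054808 and female controls 2.81, 1.83, 3.82, 3.65 and 4.14, again with no overlap. The difference was -3.07 (SE 0.29, adjusted p = 2.02e-10 by limma), 8.37-fold, and -2.67 (SE 0.27, adjusted p = 1.15e-09 by limma), 6.35-fold, by the other probe. Within the 4 slides that held controls of both sexes, Cd36 ran from -3.58 to -2.12 and from -3.19 to -2.19, and Elovl6 from -3.78 to -2.70 and from -2.48 to -1.52.

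Fasn was lower in male controls by 1.16 on the log2 scale (SE 0.32, adjusted p = 0.0079 by limma), with overlapping ranges and -1.66 to -0.74 within slides, and the call was lost without control male 2 (-0.92, adjusted p = 0.052 by limma) and in the authors' values (-1.15, adjusted p = 0.0622 by limma). Fabp7 was higher in males, by 0.70 (SE 0.22, adjusted p = 0.0174 by limma). That call too depended on single rats, being lost without control male 5 (0.63, adjusted p = 0.0517 by limma) or control female 9 (0.63, adjusted p = 0.0607 by limma). It was lost as well without the slide term (0.70, adjusted p = 0.377 by limma), with the dim array kept (0.87, adjusted p = 0.331 by limma), with the scanner software's ratio (0.38, adjusted p = 0.464 by limma), with median centring (0.43, adjusted p = 0.098 by limma) and in the authors' values (0.63, adjusted p = 0.64 by limma). Mlxipl, Pklr, Acly, Acaca and Fabp1 differed by 0.01, 0.19, -0.29, 0.07 and 0.14, none of them called. The sex gaps at 2 mg/kg were -2.37 and -1.18 for Elovl6 and -3.00 and -2.34 for Cd36, beside -3.21, -2.14, -3.07 and -2.67 in controls. For Elovl6 probe A_44_P428691 both gaps rest on dim male signals, above background in 1 of 5 males at 0 and 1 of 5 at 2 mg/kg.

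**Figure D3:**
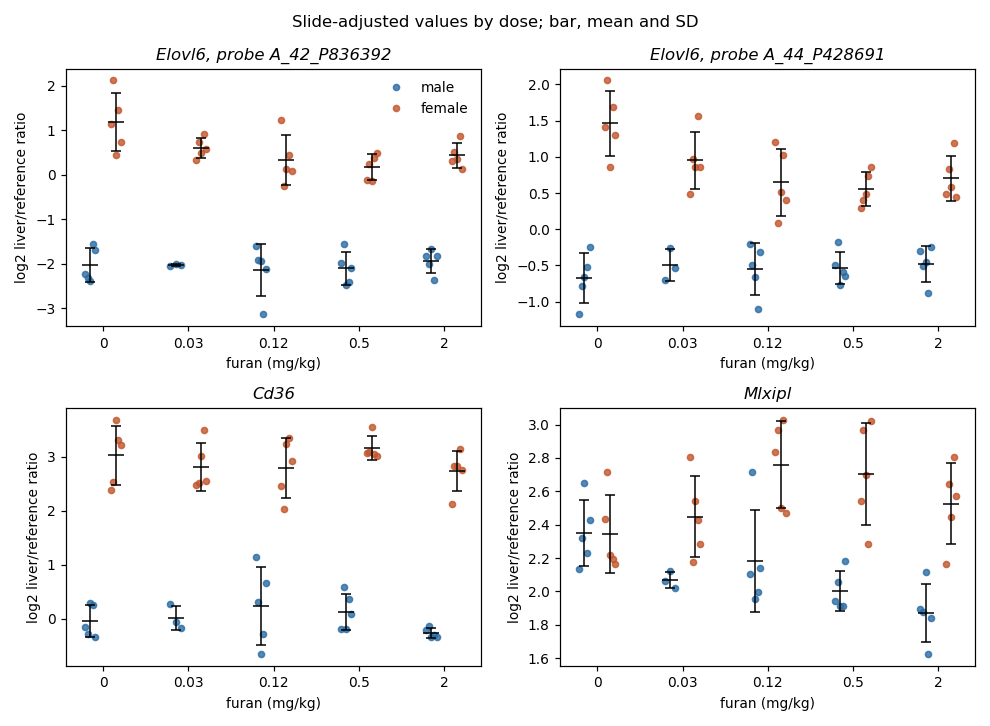
Slide-adjusted log2 liver/reference ratios of both Elovl6 probes, Cd36 (probe A_64_P054808) and Mlxipl (vertical axes) at each furan dose in mg/kg (equally spaced), 1 point per rat, with bars for the mean and SD. For Elovl6 and Cd36 every female lies above every male at every dose; for Mlxipl the controls of both sexes share a mean of 2.35.

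Rats deviated from the level fitted for their group and slide, and in these deviations Acly moved with Fasn. After group and slide means were removed, the deviations of Acly and Fasn correlated with r = 0.834 and rho = 0.815 over 48 arrays (adjusted permutation p = 4e-05 for r, from the smallest p that 100000 resamples can give, over 8 relations). Without the 2 arrays farthest from the Fasn median r was 0.818, and it was 0.831 to 0.937 within the 6 slides of at least 6 arrays. Elovl6 followed too, with r = 0.658 and rho = 0.612 (adjusted permutation p = 4e-05 for r), 0.617 without the 2 farthest arrays and 0.306 to 0.846 within slides. All 48 points share the fitted group and slide means, so they are not wholly independent.

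Fabp7 ran against Fasn weakly, with r = -0.339 (adjusted permutation p = 0.049) and rho = -0.286 (adjusted permutation p = 0.0778). It was -0.299 without the 2 farthest arrays, -0.145 in males, -0.618 in females and -0.601 to 0.0821 within slides, so it did not hold on every slide. For Mlxipl r was 0.32 (adjusted permutation p = 0.0527), for Pklr 0.211 (adjusted permutation p = 0.239), for Acaca 0.182 (adjusted permutation p = 0.287), for Cd36 -0.159 (adjusted permutation p = 0.322) and for Fabp1 -0.0507 (adjusted permutation p = 0.733). Within slides none of these 5 kept one sign.

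**Figure D4:**
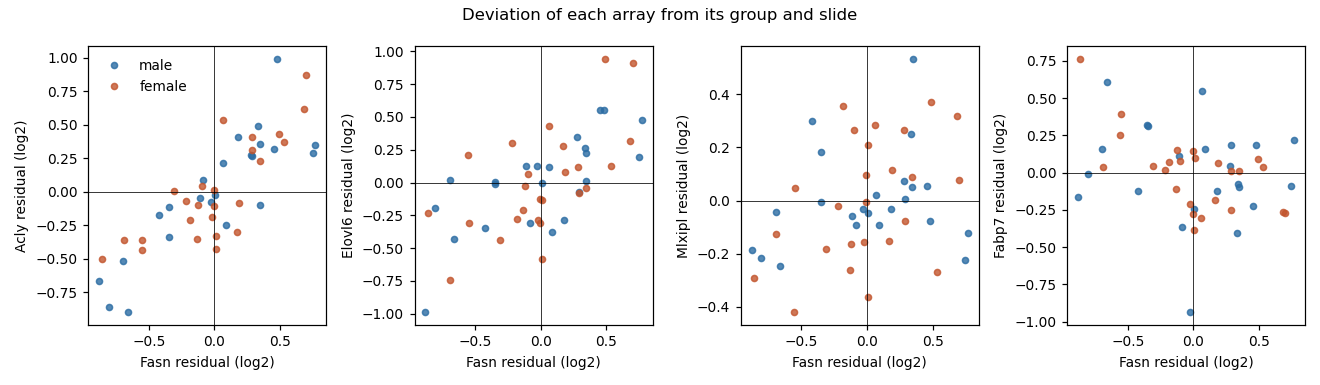
Deviation of each of 48 arrays from its group and slide, in log2 units, for Acly, Elovl6 (probe A_42_P836392), Mlxipl and Fabp7 (vertical axes) against Fasn (horizontal axes), 1 point per rat. Acly lies close to a rising line (r = 0.834), Elovl6 less so (0.658), and Mlxipl (0.32) and Fabp7 (-0.339) scatter widely.

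Around these genes, 61 others of fat synthesis, storage and transport were listed, of which 57 had a probe and 54 were tested, each by its brightest probe. In males at 2 mg/kg 4 rose and 6 fell past both thresholds, 18.5% beside 5.07% of all probes, with a median of -0.17 and 36 of 54 below zero. Among 11 regulators 2 fell, Insig2, which holds SREBP in the endoplasmic reticulum, by 0.72 on the log2 scale and Mid1ip1, which promotes assembly of acetyl-CoA carboxylase, by 1.02 (adjusted p = 0.000738 and 0.00646 by limma). Thrsp, its relative, changed by -0.38 (adjusted p = 0.00269 by limma), under 1.5-fold.

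Of 6 genes of sugar supply 1 rose and 1 fell, with a median of -0.27. Of 10 further genes of fatty acid synthesis and desaturation 0 were called by limma, 1 of them with a p under 0.05 before adjustment, as had 35.1% of all probes. Me1, malic enzyme, which makes NADPH, stood at 0.25 (adjusted p = 0.518 by limma) and the desaturase Scd at -1.38 with an SE of 0.85 (adjusted p = 0.254 by limma). Of 9 genes of uptake and activation 3 fell: Acsl1, the main long-chain acyl-CoA synthetase, by 0.88, Slc27a5, a bile acid and very-long-chain acyl-CoA synthetase, by 0.73 and Acsl5 by 0.62.

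Among 11 genes of triglyceride synthesis and droplets Mogat2, a monoacylglycerol acyltransferase, rose by 0.74. Of 7 other genes listed with the fatty acid binding proteins 2 rose, against the direction of Fabp7: Fabp2, the intestinal form, by 1.47 (SE 0.51, adjusted p = 0.0323 by limma) and Fabp4, the adipocyte form, by 0.71 (SE 0.19, adjusted p = 0.00573 by limma). The 7 include Dbi and Acbd5, which bind acyl-CoA and are not Fabp genes. In females at 2 mg/kg 1 of the 54 was called (1.85%, beside 1.4% of all probes): Lpin1, a phosphatidate phosphatase, rose by 1.28 (adjusted p = 0.0401 by limma). Me1 in females stood at -0.75 (adjusted p = 0.0738 by limma) and Scd at -0.29 (adjusted p = 0.874 by limma). At lower doses 1 listed gene was called, Lpin1 in males at 0.12 mg/kg, higher by 1.61 (adjusted p = 0.0255 by limma), where 0.306% of all probes were called. In the dose trend 5 of the 54 rose and 4 fell in males (16.7%, beside 3.76% of all probes). In females 3.7% were called, beside 3.09%: Lpin1 rose by 0.25 and Me1 fell by 0.21 per step (adjusted p = 0.0493 and 0.0177 by limma). Between control males and females 2 were higher and 8 lower in males (18.5%, beside 6.42% of all probes), among them Mogat2 at -2.45 and Acss2, which activates acetate, at -1.08.

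The male and female changes at 2 mg/kg differed past both thresholds for none of the 11 member probes by limma, 5 of which had a p under 0.05 before adjustment. Of all probes 18.9% had such a p and 1.09% were called. Among the 54 listed genes (3.7% called) they differed for Insig2, by -0.79, and Slc27a5, by -0.67 (adjusted p = 0.0462 and 0.0392 by limma).

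Markers of cell types were set beside the members at the same dose. In males at 2 mg/kg all 6 hepatocyte markers had changes below zero, with a median of -0.33 and 0 called by limma (4 with a p under 0.05 before adjustment, beside 35.1% of all probes in males and 24% in females), and the mean of their log2 ratios ran from 5.11 to 6.77 in treated and 5.22 to 7.41 in control males. Of 3 bile duct markers 2 rose in males, Epcam by 0.92 and Krt19 by 0.76, and 1 in females, Epcam by 0.60. The bile duct mean ran from -1.31 to -0.02 in treated and -1.79 to -0.97 in control males. No marker of 3 tested endothelial and 6 tested macrophage genes was called in either sex at this dose by limma; before adjustment 0 and 1 had a p under 0.05 in males. Of 2 tested adipocyte markers none was called in either sex by limma, though 1 in each sex had a p under 0.05 before adjustment, and of 4 tested pancreas markers Cpa1 was lower in females, by -0.77 (adjusted p = 0.0382 by limma). In females the hepatocyte median was -0.01. The part of cell composition in the changes of the members was not tested.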

How the data were processed

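Liver RNA (Cy5) of 49 rats was hybridised against universal rat reference RNA (Cy3) on Agilent 2-colour arrays, with no dye swaps; per the labels, 1 male array had failed quality control. The deposited scanner files, made with Agilent Feature Extraction 10.7.3.1, give median signal and background intensity per spot and the scanner software's log10 ratio. The authors' deposited value table holds normalized log2 ratios. From the intensities, background was corrected by normexp (offset 50), ratios were normalized by loess within each array, and spots of a probe were averaged. Probes above background on at least 4 arrays of any 1 group of sex and dose were tested (17661 of 30367). The fit used 48 arrays; 1 array with under 10% of liver spots above background was left out. Group means and slide were fitted with limma 3.58.1 in R 4.3.3, with files read by the R package data.table (version 1.17.8). A probe was called at a Benjamini-Hochberg adjusted p of at most 0.05 and a change of at least 1.5-fold, the limits the study used on a model of sex, treatment and their interaction. Slide was added here. The script was checked on simulated data. The number of arrays limits the precision.

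Every member probe is named. Of the gene lists, Thrsp, Me1 and Scd are named whatever their values, and the rule allowed up to 8 other called genes per comparison, in order of adjusted p. The called genes of the male dose trend are given by counts only. Between control males and females only Mogat2 and Acss2 are named. Some genes of the sugar supply list that this rule names are not reported here. Members, lists, tests and the design were chosen with earlier results of these data known. The number in a rat's title names the animal and pairs nothing across groups. Deviations from group and slide means were compared by permutation with 100000 resamples, 2-sided. Alternatives were no slide term, a random slide term, all 49 arrays, the scanner software's ratio, median centring, no filter, a replicate block and leaving out each rat; after seeing the data, the authors' value table, leaving out slides 5 and 6 and the liver channel alone were added. Promoter windows came from RefSeq (GRCr8), and motifs were searched on both strands.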

Additional observations from a re-analysis of the deposited data

Results flagged for a closer look

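In 10 of 99 sets of 5 rats of 1 group, 1 rat stood apart from the rest of its group in the log2 ratio as measured. Chance gives about 1 in 20, but that share takes no account of slide, and these ratios still hold the slide's own shift. Female 72 at 0.5 mg/kg was the highest of her group for 3 genes, with Acly at 2.11 (next 1.05), Mlxipl at 3.62 (next 2.61) and Pklr at 4.65 (next 4.01). Female 90 at 2 mg/kg had the highest Fabp1, at 9.69 (next 8.26), and the lowest Acaca, at -0.26 (next -0.03). Adjusted for slide, the females at 2 mg/kg spanned only 8.74 to 8.81 for Fabp1, and -0.25 to 0.10 for Acaca. Control male 6 had the lowest Mlxipl, at 1.93 (next 2.73), and the lowest Cd36 by probe A_64_P113793, at -0.16 (next 0.59). Pklr stood at 4.71 in female 49 at 0.12 mg/kg (next 4.02). Elovl6 stood at 1.25 by probe A_42_P836392 in female 42 at 0.12 mg/kg (next 0.34), and at -0.086 by probe A_44_P428691 in male 63 at 0.5 mg/kg (next -0.56).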

How the results depend on the processing

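Counts of member probes called at 2 mg/kg moved from 4 in males and 1 in females to 2 and 2 without the slide term, 2 and 0 with all 49 arrays, 1 and 0 with both changes, 2 and 2 in the authors' value table without a slide term, 2 in males with median centring, 3 in females with slide as a random term and 0 in females with the scanner software's ratio. The male trend count moved from 2 to 1 with all 49 arrays, with or without the slide term, and in the authors' value table, and to 4 with the liver channel alone. The female trend count moved from 4 to 2 without the slide term, with all 49 arrays, in the value table and with the liver channel alone, and to 1 with 49 arrays and no slide term, with the scanner software's ratio and without slides 5 and 6, and to 3 with median centring and with no filter on dim probes, both by the loss of Elovl6 probe A_42_P836392. With the scanner software's ratio 5 probes were called in males at 2 mg/kg, but not the same ones: Fabp7 and Pklr were lost and Acaca, Fabp1 and Mlxipl gained. Counts that moved by at most 1.5 times, such as the 6 between control males and females (4 to 6), are otherwise left out here. With slide as a random term 1 probe was called in females at 0.5 mg/kg, and with the scanner software's ratio 1 differed in its furan change between the sexes. The cause was not tested. Leaving out 1 rat gave 2 to 4 calls in males and 1 to 3 in females at 2 mg/kg, 2 to 3 and 1 to 4 for the trends, 0 to 2 for the difference between the sexes in the furan change, 5 to 6 between control males and females, 2 to 4 genes correlated with Fasn in either sign, and 0 to 0 at lower doses. No filter on dim probes moved no other count of members.

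Signs turned only among values that were not called. At 2 mg/kg in females, Mlxipl turned to -0.52 without the slide term, with 48 or 49 arrays, and -0.66 in the value table. Fabp1 turned to 0.091 with 49 arrays and 0.068 with the liver channel alone. Pklr turned to 0.11 with 49 arrays, 0.0027 without slides 5 and 6 and 0.083 with the liver channel alone, and Acaca to 0.062 with the scanner software's ratio and 0.0060 with the liver channel alone. In males Cd36 by A_64_P113793 turned to 0.11 with median centring and 0.031 with the liver channel alone. Between control males and females, Mlxipl turned to -0.10 without the slide term, with 48 or 49 arrays, -0.0030 with a random slide term, -0.16 with median centring and -0.21 in the value table, and with median centring Fabp1 turned to -0.17 and Pklr to -0.14. For the difference between the sexes in the furan change, Fabp1 turned to 0.22 without the slide term, with 48 or 49 arrays, and 0.32 in the value table, Fabp7 to 0.31 and Cd36 by A_64_P113793 to -0.079 in the value table, and Cd36 by A_64_P054808 to -0.11 with the liver channel alone. Leaving out 1 rat, ranges that crossed zero were -0.073 to 0.051 for Acaca in females, -0.20 to 0.036 for Cd36 by A_64_P113793 and -0.0072 to 0.25 for Elovl6 by A_42_P836392 in males, -0.14 to 0.24 for Cd36 by A_64_P054808 and -0.39 to 0.17 for Fabp7 between the sexes in the furan change, and -0.085 to 0.10 for Mlxipl between control males and females.

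Numbers shared by a male and a female belong to different rats, and over 8 such pairs the correlation of their deviations ran from -0.29 to 0.26, so they were not treated as pairs. With the replicate block, 4 probes in males and 1 in females were called at 2 mg/kg, 2 and 4 in the trends, 6 between control males and females and 0 in the difference of changes. In that fit 3 genes correlated with Fasn, counting either sign. Of the 49 columns of the authors' values 46 were close to an array (r over 0.75), 47 were closest to an array of their own group and 7 to the array of the same label. The labels therefore did not tie the columns of a group to slides, and that table was not fitted with a slide term. Rats are named here by the labels of the scanner files. Which labels are right was not tested.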
